A study of Mus musculus with 8 samples.

Results

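Stat2 and 8 partners and targets in type I interferon signalling were followed through bulk RNA sequencing of whole adult mouse testis. The 9 genes were taken by name from the 56748 gene identifiers of the count table: the receptor genes Ifnar1 and Ifnar2, the signalling genes Stat2, Irf9 and Irf7, and the target genes Isg15, Usp18, Rtp4 and Bst2. Stat2 had been picked because its level was higher in the libraries labelled knockout, so its own difference is given as a description, with no test. The other 8 were named for their place in the pathway, and the question was whether they followed Stat2. All 9 were found in the table, and 8 passed the filter on low counts. Isg15 did not.

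The study compared 4 testis libraries labelled with the genotype Ak9-/- with 4 labelled WT, and its title concerns mutations of AK9, an adenylate kinase, in male fertility and sperm motility. The sources used here do not give the strain, the age beyond adult or how the Ak9 allele was made. As the labels do not say whether each library is its own animal, a p-value below reflects only how far libraries of a label differ, which may be technical.

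The type I interferons bind a receptor made of IFNAR1 and IFNAR2, on which the kinases TYK2 and JAK1 phosphorylate STAT2. Phosphorylated STAT2 acts with IRF9 in ISGF3, a transcription factor complex that binds the interferon-stimulated response element in the promoters of many antiviral genes. STAT2 is the subunit that carries most of the transactivating function, and the genes for STAT2, IRF9 and IRF7 are themselves interferon-induced. In the testis, Sertoli, Leydig and peritubular cells and macrophages are known to mount this response more readily than germ cells.

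The response element is shown first because it is the sequence through which a higher ISGF3 activity would be read. The windows ran from 250 bases before to 50 bases after each gene's start (RefSeq, build GRCm38.p6) and were available for 7 of the 9 genes, with Usp18 and Rtp4 unmatched. They were searched on both strands for GAAANNGAAA, a short form of the element, where overlapping matches were counted separately. Matches were present in 3 of the 7, Stat2, Isg15 and Bst2, and in 3.44% of all 32851 windows. Of the fixed list of interferon-stimulated genes, 21 of the 46 with a window (45.7%) held it in any of their windows. That share is per gene, where the 3.44% is per window. Counted per gene over all genes with a window, 1079 held it and 25946 did not. The 250 bases before the start are printed 5′ to 3′ on the gene's own strand for these 3 genes, with the matches in capitals. A match is a description of these letters, not evidence of binding.
Stat2, chr10:128270248-128270497, + strand: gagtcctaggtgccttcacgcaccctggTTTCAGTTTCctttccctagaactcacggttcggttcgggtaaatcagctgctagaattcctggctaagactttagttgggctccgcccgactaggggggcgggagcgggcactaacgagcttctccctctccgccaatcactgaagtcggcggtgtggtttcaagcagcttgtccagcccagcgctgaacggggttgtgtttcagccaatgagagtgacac
Isg15, chr4:156200819-156201068, - strand: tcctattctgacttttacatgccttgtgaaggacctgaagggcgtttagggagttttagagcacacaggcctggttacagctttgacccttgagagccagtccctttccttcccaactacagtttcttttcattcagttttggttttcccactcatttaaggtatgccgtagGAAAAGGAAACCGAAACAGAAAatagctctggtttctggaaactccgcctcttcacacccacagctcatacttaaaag
Bst2, chr8:71537473-71537722, - strand: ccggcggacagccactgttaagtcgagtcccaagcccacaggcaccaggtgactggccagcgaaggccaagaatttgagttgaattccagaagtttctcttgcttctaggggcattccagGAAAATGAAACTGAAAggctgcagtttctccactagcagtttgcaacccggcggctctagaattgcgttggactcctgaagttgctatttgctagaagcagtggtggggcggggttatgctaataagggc
The Stat2 match lay 222 bases before the start and reads on the opposite strand. The 3 overlapping matches of Isg15 began 78, 72 and 66 bases before the start, and those of Bst2 130 and 124 bases before it.

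Libraries held 18062780 to 24415587 counts. Levels are given in CPM, counts relative to the TMM-scaled library total. Ak9 itself had 69.3, 116, 101 and 40.6 CPM across labelled knockouts 1 to 4, with wild types between 107 and 122 CPM, so labelled knockout 2 was not below the wild types and directions are stated between labels. Spermatid, spermatocyte, Sertoli and Leydig marker genes were detected in every library. Labelled knockout 3 stood apart: its summed elongating spermatid markers were at 6940 CPM against 11100 to 17200 CPM in the other 7 libraries, and its summed epididymis markers at 266 CPM. Labelled knockout 4 had 45.5 CPM of epididymis markers, where the remaining 6 libraries had 5.72 to 9.67 CPM, and the lowest Leydig markers, at 812 CPM against 1430 to 1930 CPM elsewhere. In bulk tissue, fewer cells of a type and less RNA per cell cannot be told apart.

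Stat2 (ENSMUSG00000040033, chromosome 10) was higher in every labelled knockout than in any wild type. Its level was 15.0, 17.1, 19.1 and 16.4 CPM in labelled knockouts 1 to 4, from 333, 354, 387 and 282 counts. In wild types 1 to 4 it was 10.2, 7.99, 10.1 and 9.85 CPM, from 190, 178, 250 and 197 counts. The groups did not overlap, and the gap ran from 10.2 to 15.0 CPM. The means were 16.9 ± 1.70 and 9.53 ± 1.03 CPM (SD, n = 4 per group), a ratio of 1.77, and single labelled knockouts stood at 1.58 to 2.00 times the wild-type mean. The fitted log2 fold change of labelled knockout over wild type was 0.83 (SE 0.14). It ranged from 0.75 to 0.88 when each library was left out in turn. Of all 21805 genes tested, 214 (0.981%) had every labelled knockout above every wild type, and 2.3% had groups that did not overlap in either direction. As Stat2 was chosen on this contrast, nothing is read from its place among them. No other annotated exon overlaps its exons in GENCODE M21.

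**Figure D1:**
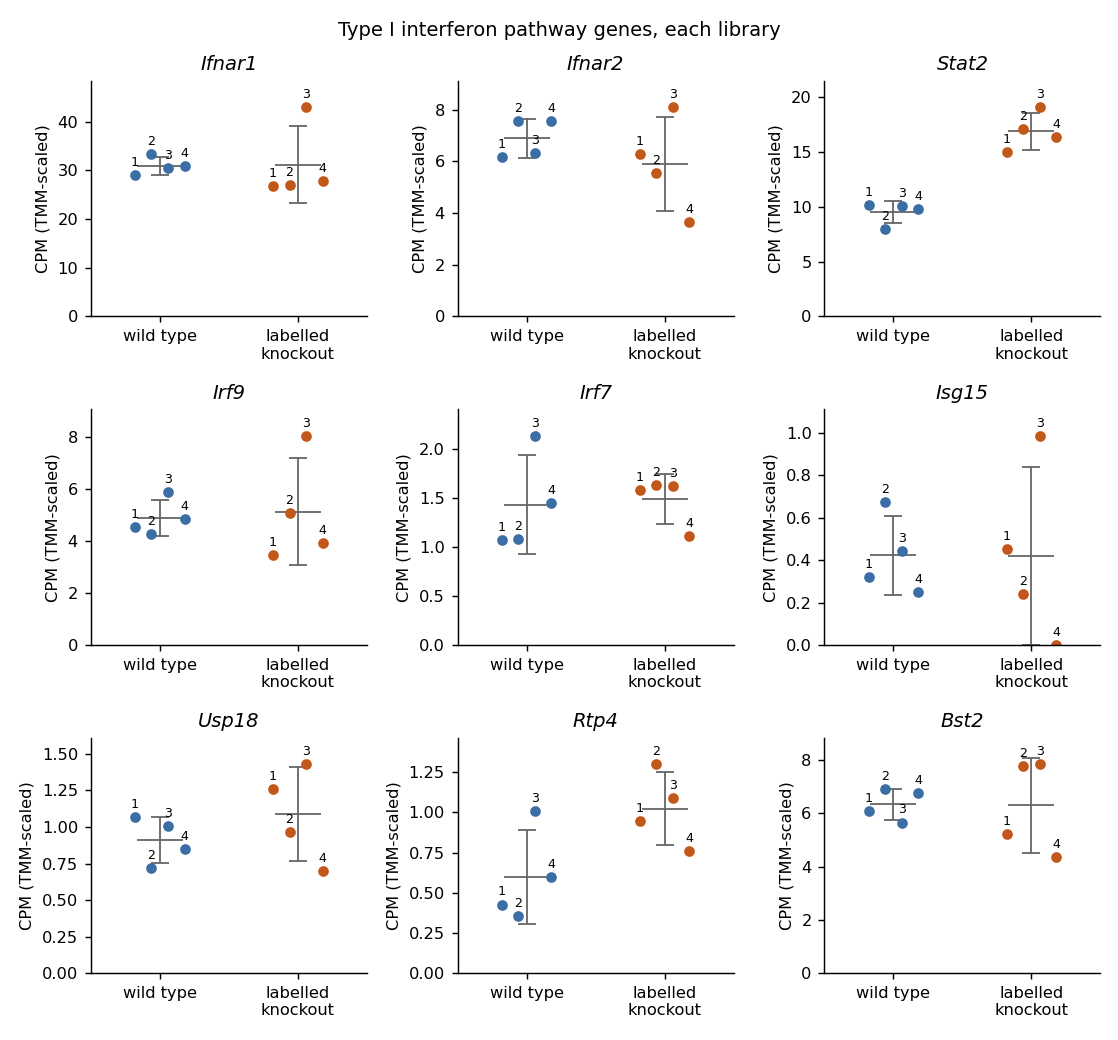
Level of each of the 9 genes (CPM, TMM-scaled, linear axis from 0) in the 4 wild types (blue) and 4 labelled knockouts (orange), with the library number above each point and the group mean and SD as bars, cut at 0 for Isg15. Stat2 is the only panel of the 9 in which the groups do not overlap, and labelled knockout 3 is the highest point in 7 of the 9 panels.

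None of the partners and targets passed the test. Of the 7 that could be tested, 0 were called higher or lower by edgeR's quasi-likelihood test at an adjusted p under 0.05, where 4 of all 21805 tested genes (0.0183%) were, all higher. At an unadjusted p under 0.05 the count was 0 by edgeR, 0 by DESeq2 and 1 by limma-voom (Rtp4), and neither DESeq2 nor limma-voom called any of the 7 after adjustment. In edgeR, 3.04% of all genes had an unadjusted p under 0.05, 1.25% higher and 1.79% lower, and the share was 3.04% in DESeq2 and 3.51% in limma-voom. The adjusted p was 1.00 for each of the 7. A p that misses the threshold does not show that a gene was equal in the groups, so the 95% interval of each log2 fold change is given below. The upper bound was below Stat2's fitted value of 0.83 for 5 of the 7, and above it for Usp18 and Rtp4. Stat2 was chosen on that value, which has an error of its own (SE 0.14), so the comparison is a description and not a test.

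At the receptor, neither chain differed beyond the spread between libraries. Ifnar1 (ENSMUSG00000022967, chromosome 16), the chain that docks TYK2, had 26.9, 27.1, 43.0 and 27.8 CPM across labelled knockouts 1 to 4, against 29.0, 33.4, 30.5 and 31.0 CPM across wild types 1 to 4. Labelled knockouts 1, 2 and 4 were below every wild type, and labelled knockout 3 was above every wild type. This gave a log2 fold change of 0.01 (SE 0.16, 95% interval -0.33 to 0.35). Without labelled knockout 3 it was -0.20 (SE 0.08, edgeR adjusted p = 0.241).

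Ifnar2 (ENSMUSG00000022971, chromosome 16), the chain that binds interferon with the higher affinity and docks JAK1, had 6.27, 5.55, 8.09 and 3.67 CPM across labelled knockouts, against 6.15, 7.54, 6.31 and 7.55 CPM across wild types. Labelled knockout 3 was again the highest of the 8 libraries, and labelled knockout 4 the lowest. Its log2 fold change was -0.22 (SE 0.22, 95% interval -0.71 to 0.27). Ifnar2 shares 315 of its 3329 annotated exon bases with Gm21970 on the same strand, so reads there could be assigned to either. The kinases of the receptor had values of -0.17 for Jak1 (SE 0.18), at 67.3 ± 20.1 against 75.7 ± 7.37 CPM, and -0.02 for Tyk2 (SE 0.10), at 24.5 ± 2.14 against 24.8 ± 1.20 CPM (SD, n = 4 per group, labelled knockout first).

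Irf9 (ENSMUSG00000002325, chromosome 14), the DNA-contacting partner of STAT2 in ISGF3, did not follow Stat2. Its level was 3.47, 5.07, 8.04 and 3.91 CPM across labelled knockouts 1 to 4, against 4.54, 4.27, 5.86 and 4.85 CPM across wild types 1 to 4. Labelled knockouts 1 and 4 were below every wild type, and only labelled knockout 3 was above every wild type. The fit gave a log2 fold change of 0.07 (SE 0.26, 95% interval -0.51 to 0.64), and without labelled knockout 3 it was -0.25 (SE 0.19, edgeR adjusted p = 0.493). Irf9 shares 123 of its 5386 exon bases with Rnf31 on the same strand.

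Stat2 relative to Irf9, as a ratio of CPM within a library, was 2.37 to 4.32 in labelled knockouts and 1.72 to 2.24 in wild types. The ratio contains the level on which Stat2 was chosen and is given without a test.

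Other STAT genes mediate cytokine and growth factor signals. Stat4, a mediator of interleukin-12 signalling, had 313 ± 108 CPM against a wild-type 301 ± 18.3 CPM, a log2 fold change of 0.06 (SE 0.23). Its lowest library was labelled knockout 3, at 156 CPM, where the round and elongating spermatid scores were -0.69 and -0.85. Their part in the Stat4 level was not tested. The log2 fold changes of Stat3, Stat5b and Stat6 were -0.04 (SE 0.12), -0.25 (SE 0.20) and -0.16 (SE 0.24).

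Irf7 (ENSMUSG00000025498, chromosome 7), an interferon-induced factor that amplifies production of interferon-alpha, had 1.58, 1.64, 1.63 and 1.11 CPM across labelled knockouts 1 to 4, from 35, 34, 33 and 19 counts. Wild types 1 to 4 had 1.07, 1.08, 2.14 and 1.45 CPM, from 20, 24, 53 and 29 counts. All 4 labelled knockouts lay within the wild-type range, whose highest value was in wild type 3. For Irf7 this left a log2 fold change of 0.05 (SE 0.29, 95% interval -0.58 to 0.68). Irf7 shares 45 exon bases with Phrf1 on the other strand. Among the remaining interferon regulatory factors the values ran from -0.48 (SE 0.33) for Irf1, an interferon-gamma-induced activator, to 0.24 (SE 0.23) for Irf4. The most abundant, Irf3, which switches on interferon genes after viral sensing, was at 57.5 ± 8.16 against 55.9 ± 2.35 CPM (0.04, SE 0.11).

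Among the targets, Isg15, Usp18 and Rtp4 had few counts, and Bst2 had more. Isg15 (ENSMUSG00000035692, chromosome 4), a ubiquitin-like modifier and a sensitive readout of ISGF3, had 10, 5, 20 and 0 counts across labelled knockouts 1 to 4, against 6, 15, 11 and 5 counts across wild types 1 to 4. In CPM these were 0.451, 0.241, 0.987 and 0 against 0.321, 0.674, 0.445 and 0.250. The highest and the lowest of the 8 libraries were both labelled knockouts, and the group means were 0.420 and 0.422 CPM. The count of 0 in labelled knockout 4 allows a level of up to 0.158 CPM (3 counts of its total, 95% limit, counting error only). With no filter on low counts the log2 fold change was -0.01 (edgeR adjusted p = 0.997).

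Usp18 (ENSMUSG00000030107, chromosome 6), the protease that removes ISG15 and blocks signalling at IFNAR2, was at 1.26, 0.965, 1.43 and 0.700 CPM in labelled knockouts, from 28, 20, 29 and 12 counts. Wild types had 1.07, 0.718, 1.01 and 0.850 CPM, from 20, 16, 25 and 17 counts. Labelled knockouts 1 and 3 were above every wild type, and labelled knockout 4 was below every wild type. The log2 fold change was 0.27 (SE 0.29, 95% interval -0.37 to 0.90), so neither no change nor one of Stat2's size lies outside the interval.

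Rtp4 (ENSMUSG00000033355, chromosome 16), a receptor-transporting protein strongly induced by interferon, had the largest fitted value of the 7 tested partners and targets. It had 0.947, 1.30, 1.09 and 0.758 CPM across labelled knockouts 1 to 4, from 21, 27, 22 and 13 counts. Wild types 1 to 4 had 0.428, 0.359, 1.01 and 0.600 CPM, from 8, 8, 25 and 12 counts. All 4 labelled knockouts exceeded the wild-type mean and wild types 1, 2 and 4, but wild type 3 lay among them, so the groups overlapped. The log2 fold change was 0.75 (SE 0.36, 95% interval -0.04 to 1.54, edgeR unadjusted p = 0.0604). Without wild type 3 it was 1.15, still with an adjusted p of 1.00 in edgeR. Rtp4 shares 296 of its 2131 exon bases with Gm45338 on the same strand.

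Bst2 (ENSMUSG00000046718, chromosome 8), or tetherin, which holds budding virus at the cell surface, was the target with the most counts, 75 to 161 per library. It had 5.23, 7.77, 7.85 and 4.37 CPM across labelled knockouts, against 6.09, 6.91, 5.66 and 6.75 CPM in wild types. Labelled knockouts 2 and 3 were above every wild type and labelled knockouts 1 and 4 below every wild type. The log2 fold change was -0.01 (SE 0.21, 95% interval -0.47 to 0.45).

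Levels between genes were compared per kilobase of exon, with exon lengths from GENCODE M21. In wild types Bst2 was the highest at 7.04 ± 0.645 CPM per kb, then Ifnar1 at 5.22 ± 0.303, Ifnar2 at 2.07 ± 0.229, Stat2 at 1.61 ± 0.174 and Irf9 at 0.906 ± 0.130 (SD, n = 4). The wild-type ranges of these 5 neighbours in the order did not overlap. Isg15, Irf7, Usp18 and Rtp4 followed at 0.559, 0.380, 0.327 and 0.281 CPM per kb with overlapping ranges, and Isg15 also overlapped Irf9. In labelled knockouts Stat2, at 2.53 to 3.22 CPM per kb, lay above Ifnar2, at 1.10 to 2.43, the reverse of their order in wild types. This order contains the level on which Stat2 was chosen, so nothing is read from it.

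**Figure D2:**
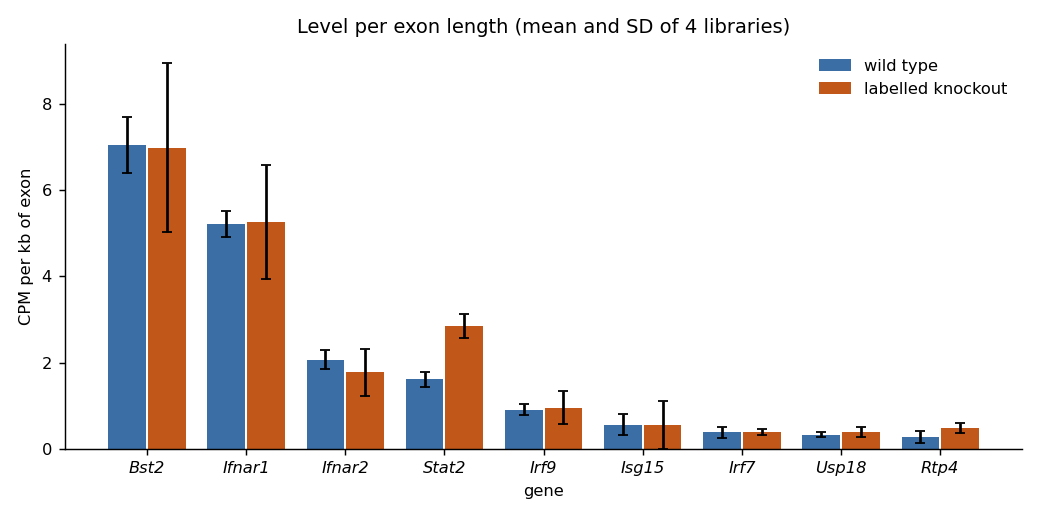
Mean CPM per kb of annotated exon in wild types (blue) and labelled knockouts (orange), with the SD of 4 libraries as error bars (the lower end for Isg15 is cut at 0). Stat2 stands at 2.85 CPM per kb against 1.61 in wild types, while the bars of Bst2, Ifnar1, Irf9, Isg15 and Irf7 have nearly equal means in both groups. Rtp4 stands at 0.48 against 0.281 in wild types, Usp18 at 0.39 against 0.327 and Ifnar2 at 1.77 against 2.07.

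The wider pathway was read through 9 lists of 129 different genes. Apart from Stat2, 99 of them passed the filter, and edgeR called 0 higher and 0 lower, as did DESeq2 and limma-voom. At an unadjusted p under 0.05 there was 1 by edgeR (1.01%, against 3.04% of all tested genes), H2-K1. It was 2 by DESeq2 and 2 by limma-voom (2.02% each), where 3.04% and 3.51% of all genes passed by those tools. Of the 99, 33 had a log2 fold change above 0 and 66 below 0, with a median of -0.08, where over all tested genes the median was 0.01 and 52.9% were above 0. Every labelled knockout was above every wild type for 0 of the 99. Every labelled knockout was below every wild type for 1, Tor3a, an ATPase of the endoplasmic reticulum, at 2.95 ± 0.471 against 3.50 ± 0.0476 CPM. For all tested genes that share was 1.32%. Tor3a was named after its values were seen.

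Type I interferon genes themselves were at or near 0. Of 18 ligand genes, 14 had no count in any library, none passed the filter, and the highest count was 8. Their summed level was 0.0482 to 0.758 CPM in labelled knockouts and 0.225 to 0.321 CPM in wild types, so a difference in ligand transcripts was not detectable at this depth.

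Among interferon-stimulated genes none passed the test. Of the 59 listed, 49 were tested, 17 above 0 and 32 below 0, with a median of -0.11. The 95% interval lay below Stat2's fitted value of 0.83 for 38 of the 49 and held it for 11, among them Rtp4, Usp18 and Mx1. The count includes 4 of the 8 partners and targets, Usp18, Rtp4, Bst2 and Irf7. As Stat2 was chosen on the 0.83, which has an error of its own, the comparison with it is a description only. The most abundant were Isg20, an exonuclease, at 54.6 ± 14.2 against 52.5 ± 3.31 CPM (log2 fold change 0.06, SE 0.17), Herc6, a ligase that attaches ISG15, at 36.8 ± 9.63 against 30.1 ± 3.31 CPM (0.29, SE 0.18), and Ifi27 at 22.6 ± 5.64 against 22.6 ± 1.31 CPM (0.00, SE 0.17). The classical antiviral effectors Ifit1, Mx1 and Oasl2 had values of -0.24 (SE 0.46), 0.19 (SE 0.34) and -0.15 (SE 0.25). None of these passed. Among the tested genes of the list with a response element match, 14 in number, 3 were above 0 and the median was -0.175. Among the 23 without a match 8 were above 0 and the median was -0.11. Both medians are below the median of -0.003 over the 498 tested genes of any kind with a match, Stat2 left out.

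No sensor or inhibitor passed the test, and their medians moved with the library left out. Of 15 nucleic acid sensors and adaptors, 5 were above 0 and 10 below (median -0.04, and -0.21 without labelled knockout 3). Dhx58, the RNA sensor LGP2, was at 48.5 ± 8.13 against 44.8 ± 3.79 CPM (0.12, SE 0.13), Tbk1, the kinase of IRF3, at 20.7 ± 5.82 against 22.2 ± 2.24 CPM (-0.10, SE 0.18) and Eif2ak2, the kinase PKR, at 17.3 ± 2.55 against 17.9 ± 0.527 CPM (-0.04, SE 0.13). Of 9 tested negative regulators, Usp18 among them, 4 were above 0 and 5 below (median -0.05, and -0.22 without labelled knockout 3). Their median was 0.01, 0.03 and 0.0065 without labelled knockouts 1, 2 and 4 in turn. Without labelled knockout 4 the median of the sensors and adaptors was -0.005. The STAT inhibitors Pias1 and Pias4 had values of 0.14 (SE 0.14) and 0.20 (SE 0.14), and the phosphatase gene Ptpn11 -0.08 (SE 0.14). The type II and III receptor genes Ifngr1, Ifngr2 and Il10rb were at -0.08 (SE 0.14), -0.07 (SE 0.10) and 0.02 (SE 0.21).

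Antigen presentation genes, which interferons also induce, lay on the opposite side from Stat2. All 10 of the list were below 0, with a median of -0.29, and 0 passed edgeR's test. H2-K1, a classical class I heavy chain, had 48.4, 62.1, 76.4 and 88.3 CPM across labelled knockouts, against 88.0, 86.4, 92.0 and 114 CPM in wild types, so the groups overlapped by 1 library, labelled knockout 4. Its log2 fold change was -0.47 (SE 0.17, edgeR adjusted p = 1.00, unadjusted p = 0.0205). H2-D1, a near relative whose reads may be mixed with those of H2-K1, had 8.65, 39.4, 96.4 and 24.9 CPM across labelled knockouts, and wild types lay between 50.0 and 69.9 CPM. Tapbp, which loads peptide onto class I molecules, was at -0.02 (SE 0.09). Macrophage markers were below 0 for 8 of 11 genes, with a sum of 113 to 154 CPM in labelled knockouts and 139 to 160 CPM in wild types, none of them at 0. Leydig markers were below 0 for 7 of 7, with sums of 812 to 1780 and 1620 to 1930 CPM. Endothelial and spermatogonia markers were also below 0 for 7 of 7 genes each. Lymphocyte and dendritic cell markers were below 0 for 6 of 7 tested genes. Peritubular myoid, round spermatid and elongating spermatid markers were above 0 for 5 of 5, 7 of 7 and 7 of 7. The part of these cells in the values was not tested.

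**Figure D3:**
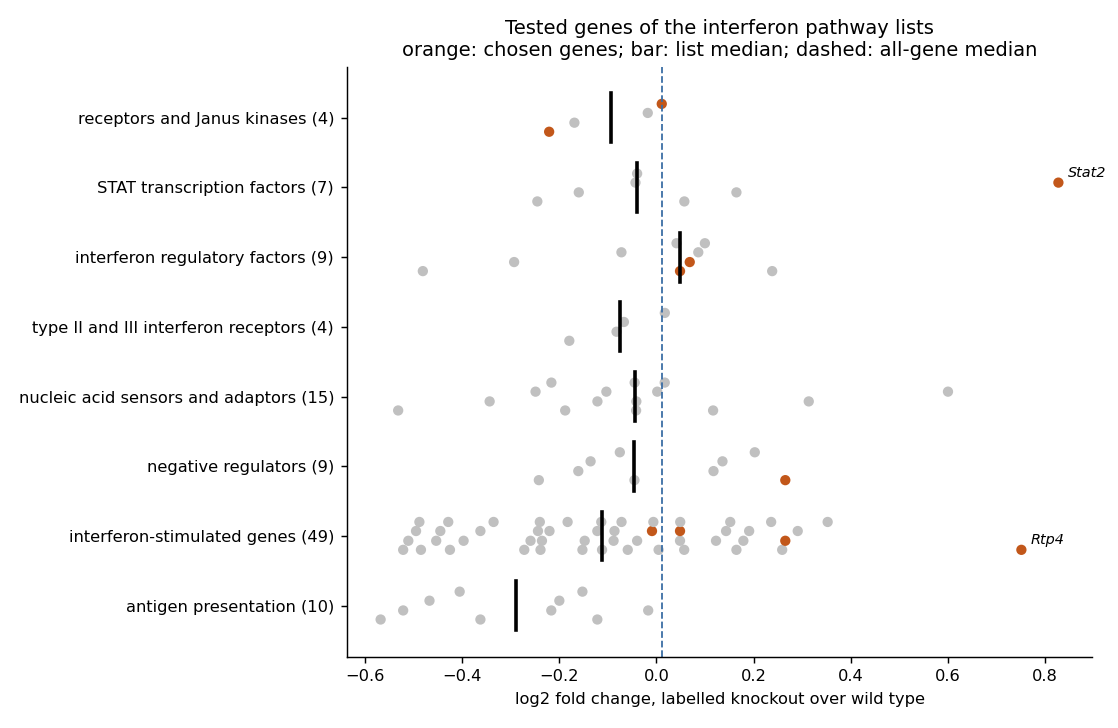
Log2 fold change of labelled knockout over wild type (x axis) for the tested genes of 8 lists (rows, number tested in parentheses), with the 9 chosen genes that were tested in orange, each list's median as a black bar and the median of all tested genes as a dashed line. Stat2 at 0.83 and Rtp4 at 0.75 are the 2 points farthest to the right, and all 10 antigen presentation genes are left of 0.

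Except for Rtp4, the SD among labelled knockouts exceeded the difference between the group means for each of the partners and targets. Of the 9 genes, 7 were highest in labelled knockout 3 (Ifnar1, Ifnar2, Stat2, Irf9, Isg15, Usp18 and Bst2) and 4 were lowest in labelled knockout 4 (Ifnar2, Isg15, Usp18 and Bst2). Labelled knockout 1 was lowest for Ifnar1 and Irf9. The list scores, mean log2 CPM of a list's tested genes less the wild-type mean, were likewise highest in labelled knockout 3 and lowest in labelled knockout 4 among the labelled knockouts for the 3 lists that follow. For interferon-stimulated genes they were -0.34, 0.05, 0.13 and -0.37 across labelled knockouts 1 to 4, against -0.20, -0.09, 0.23 and 0.06 across wild types 1 to 4. For receptors and kinases they were -0.24, -0.19, 0.30 and -0.38 against -0.08 to 0.10, and for antigen presentation -0.60, -0.26, 0.04 and -0.77 against -0.19 to 0.27.

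Cell marker levels also differed between these libraries. Sertoli marker scores were -0.16, 0.02, 0.50 and -0.40 in labelled knockouts 1 to 4, macrophage scores -0.37, -0.02, 0.07 and -0.38, and elongating spermatid scores 0.41, 0.10, -0.85 and 0.49. In wild types these 3 scores stayed between -0.17 and 0.17. Round and elongating spermatid markers lay on the same side as Stat2 for 7 of 7 genes each (medians 0.09 and 0.13). Peritubular myoid markers did so too, with 5 of 5 genes above 0 (median 0.34). The peritubular scores were 0.16, 0.63, 0.40 and 0.02 across labelled knockouts, with wild types from -0.11 to 0.14. The summed level of these peritubular markers ran from 94.1 to 159 CPM against 97.8 to 121 CPM. None of the 5 was at 0 or passed edgeR's adjusted test. Every labelled knockout was above every wild type for 1 of them, Tpm2, a muscle tropomyosin named after its values were seen. The same held for 1 Sertoli marker, Sox9 (log2 fold change 0.48, SE 0.13), also named after its values were seen. Over all tested genes that share was 0.981%. Every labelled knockout was below every wild type for 1 Leydig marker, Hsd3b1 (log2 fold change -0.85, SE 0.17), likewise named after its values were seen. Over all tested genes the share in that direction was 1.32%. Of the 9 Sertoli markers 4 were above 0 and 5 below. The part of the peritubular, spermatid or Sertoli markers in the Stat2 level was not tested. The part of any of these markers in the spread of the interferon genes was not tested either. Without labelled knockout 3 the list medians were -0.29 for receptors and kinases, -0.25 for interferon-stimulated genes and -0.51 for antigen presentation, with Stat2 at 0.75. Without labelled knockout 4 the median of interferon-stimulated genes was -0.004.

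**Figure D4:**
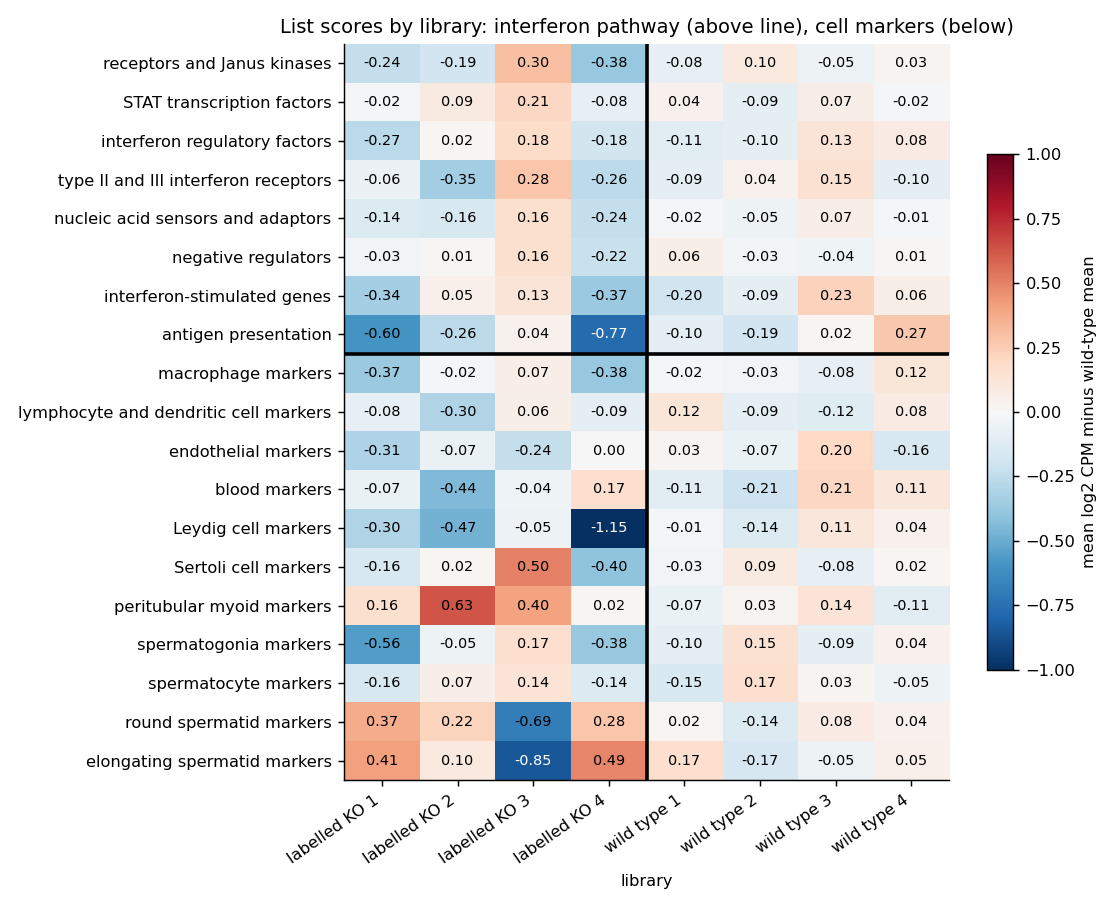
List score (mean log2 CPM of the tested genes less the wild-type mean, colour and printed value) for 8 interferon lists above the black line and 11 cell marker lists below it, in each of the 8 libraries, where the colour scale ends at -1 and 1. Antigen presentation has its lowest value, -0.77, in labelled knockout 4, where macrophage markers are at -0.38, and 8 of 8 interferon lists are above 0 in labelled knockout 3.

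The genes whose pattern over the 8 libraries was most like that of Stat2 were not in the lists. Among 14462 named genes with a mean of at least 1 CPM, the highest Pearson correlations of log2 CPM with Stat2 were 0.957 for the pseudogene Rps26-ps1, 0.944 for Rad9a, of the DNA damage checkpoint, 0.928 for Slc26a10, of the anion transporter family, 0.925 for Shank2, a synaptic scaffold, and 0.897 for the proteasome subunit gene Psmd11. These are descriptions over 8 shared libraries. In all 5 every labelled knockout was above every wild type, which follows from choosing them by their likeness to Stat2, so nothing is read from it. Shank2 was at 20.2 ± 2.16 against 13.7 ± 1.74 CPM (log2 fold change 0.56, SE 0.13), Rad9a at 6.81 ± 0.0826 against 5.70 ± 0.354 CPM and Slc26a10 at 20.1 ± 3.58 against 4.38 ± 0.704 CPM. Of the partners and targets in that comparison the correlations were 0.46 for Usp18, 0.25 for Irf7, 0.24 for Irf9, 0.08 for Ifnar1, -0.01 for Bst2 and -0.36 for Ifnar2. The highest of them, Usp18, ranked 1090 of the 14462. These correlations and ranks contain the Stat2 levels on which it was chosen, so nothing is read from them either. Rtp4, which had the largest fitted value of the tested partners and targets, and Isg15 were below a mean of 1 CPM and were not compared.

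The genes nearest Stat2 on chromosome 10, where Ak9 also lies (GENCODE M21, GRCm38), did not share its level. The 3 nearest tested protein-coding genes on one side were Apof, Timeless and Spryd4, whose fitted values were -0.14 (SE 0.36), 0.02 (SE 0.15) and 0.06 (SE 0.19) on the log2 scale. On the other side were Pan2, Cnpy2 and Cs, at -0.04 (SE 0.12), -0.30 (SE 0.22) and 0.09 (SE 0.09). The groups overlapped for all 6, and none passed edgeR's test (adjusted p = 1.00 for each). Cs, citrate synthase, was the most abundant of them, at 82.0 ± 7.77 against 77.3 ± 1.57 CPM. Slc26a10, outside these 6, is also on chromosome 10. It was 1 of the 4 genes called by edgeR (log2 fold change 2.20, SE 0.18, adjusted p = 0.00074). The other genes named as most like Stat2, Rps26-ps1, Rad9a, Shank2 and Psmd11, are on chromosomes 8, 19, 7 and 11. Rps26-ps1 was also among the 4 called genes (log2 fold change 4.19, SE 0.19, edgeR adjusted p = 2.9e-06). It is a pseudogene and the handling of multimapped reads is not given, so its reads may come from another copy. Chromosome 10 was not surveyed beyond the genes named here, so these values do not describe the chromosome as a whole. A part of chromosome position in the Stat2 level was not tested.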

How the data were processed

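Total RNA of adult testis was sequenced in 8 libraries, 4 per label. The authors deposited raw read counts per Ensembl gene, not normalized. The tools named per the submitters' processing notes are Trimmomatic, STAR, featureCounts and DESeq2, with the builds GRCm39 and mm39. The sources used here give no versions, strand setting or handling of multimapped reads, so reads of overlapping genes cannot be told apart.

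Symbols came from GENCODE M21 (52073 of 56748 identifiers matched). That annotation is on GRCm38, so it gave names, exon lengths, overlaps and gene order only. Genes were kept by filterByExpr (minimum count 10, minimum total 15; 21805 kept), scaled by TMM and compared with edgeR 4.0.16's quasi-likelihood test (limma 3.58.1, R 4.3.3), with no covariates and Benjamini-Hochberg adjustment over all tested genes at 0.05. SE is the log2 fold change over the square root of F, and intervals use the fit's degrees of freedom. List scores use log2 CPM with a prior count of 2. Totals of 18062780 to 24415587 counts put the limit of a 0 count at 0.123 to 0.166 CPM. Alternatives were a replicate block, RLE size factors, other low-count filters, DESeq2 1.42.0, limma-voom and leaving out each library. The fit was tested on simulated counts.

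The 9 genes and the lists were chosen with earlier results of these data known. Named genes are the 9, the 3 most abundant tested others of each list, the 5 most correlated with Stat2, its 3 nearest tested neighbours on each side, and Ak9. Other list members named (among them Stat5b, Irf1, Irf4, Ifit1, Mx1, Oasl2, Tor3a, Tpm2, Sox9 and Hsd3b1) fall outside that rule and were picked with their values in view. Some results are not reported here.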

Additional observations from a re-analysis of the deposited data

Results flagged for a closer look

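Of 18 groups of 4 libraries (9 genes in 2 groups), 3 held a library far from the other 3, with a gap to its nearest neighbour above 0.829 of the group's range. Chance sets apart about 1 in 20 groups. Ifnar1 was at 43.0 CPM in labelled knockout 3, where the gap was 0.944 of the range. Irf7 was at 1.11 CPM in labelled knockout 4, from 19 counts (0.882 of the range). Stat2 was at 7.99 CPM in wild type 2, from 178 counts (0.858 of the range). Without that wild type the log2 fold change of Stat2 was 0.75.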

How the results depend on the processing

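The replicate block left 4 genes called higher and 0 lower. The replicate numbers did not pair the libraries: the correlations of same-numbered deviations were 0.09, 0.044, -0.026 and 0.031, and 2 of 8 libraries correlated best with their own number. Of the 99 tested pathway genes other than Stat2, 0 were called under any alternative. Over all genes, 16 were called higher and 10 lower with no low-count filter and 23 and 23 by DESeq2. Leaving out 1 library gave 3 to 23 higher and 0 to 24 lower, with 9 and 24 without labelled knockout 1, 23 and 12 without labelled knockout 3 and 14 and 19 without labelled knockout 4. The log2 fold change of Stat2 kept its direction everywhere, as did those of Ifnar2, Usp18 and Rtp4. For Stat2 nothing is read from this, as its groups do not overlap and leaving out 1 library could hardly reverse it. Values near 0 changed sign. Ifnar1 was at -0.016 with the replicate block, -0.002 with no low-count filter and -0.018 by limma-voom, and Irf9 was at -0.003 by limma-voom. With 1 library left out, Ifnar1 ran from -0.197 to 0.074, Irf9 from -0.248 to 0.218, Irf7 from -0.068 to 0.316 and Bst2 from -0.141 to 0.128. Likewise Ifnar2 ran from -0.42 to -0.054, Usp18 from 0.102 to 0.419 and Rtp4 from 0.568 to 1.145. The cause of these changes was not tested. Isg15 passed only with no low-count filter, and Rtp4 gave no value at a mean of at least 1 CPM. Counts of 5 to 53 per library for Isg15, Irf7, Usp18 and Rtp4, beside the 0 of Isg15 in labelled knockout 4, limit the precision of these 4.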
